A study of Mus musculus with 6 samples.

Results

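Interferon-stimulated antiviral genes are the 39 genes described here, a list chosen by gene symbol that covers nucleic acid sensors, RNA-binding and RNA-cutting effectors, the ISG15 modifier system and membrane restriction factors. All 39 were found by symbol among the 17951 genes listed in at least 1 library, and each was listed in all 6 libraries. The libraries came from bone marrow-derived macrophages of 8-week-old wild-type C57BL/6 mice, grown for 4 to 6 days with 10% L929 conditioned medium, which supplies the growth factor that macrophages need. Pam3CSK4, a lipopeptide made to mimic bacterial lipoproteins and sensed by Toll-like receptor 2 together with Toll-like receptor 1, was given to all 6 cultures for 6 h. In 3 of them dopamine (DA), a catecholamine neurotransmitter, was given for 2 h before the lipopeptide, and the other 3 had Pam3CSK4 alone. The comparison asks how DA altered these transcripts in stimulated cells. Unstimulated cells and cells given DA alone were not analysed here, so a level with Pam3CSK4 already includes the response to the ligand.

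Cells make these transcripts when type I interferon binds its receptor (Ifnar1 with Ifnar2), the kinases Jak1 and Tyk2 phosphorylate STAT proteins, and these join Irf9 in the complex ISGF3. ISGF3 binds a DNA element, the interferon-stimulated response element (ISRE), in the promoters of its target genes, and interferon regulatory factors such as Irf3 and Irf7 can bind the same element. In macrophages the products detect viral RNA and DNA, cut or trap viral RNA, and limit virus entry and release.

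The list did not move as a block with DA: the 5 genes of the oligoadenylate synthetase (OAS) family rose, the 4 genes of the ADP-ribosyltransferase group and the 4 of the Schlafen and Samd9l group fell. Both genes for sensors of DNA and Z-form nucleic acid rose, and in each of the other groups members differed in direction or in whether they were called. These groups were chosen with earlier results of these data known, so agreement within a group is only a description. Most changes were small. Isg20, which encodes an RNA exonuclease, rose 2.35-fold and was the only member to change at least 2-fold, while the steepest falls were those of Mx2 (1.85-fold lower) and Parp14 (1.82-fold lower). With p-values adjusted by Benjamini-Hochberg over the 12390 genes in edgeR's quasi-likelihood test, 14 of the 39 members were higher and 17 were lower at an adjusted p under 0.05, and 8 were not called. That is 79.5% of the members, where 64.4% of all genes tested were called, 32.6% higher and 31.8% lower. Past 2-fold were 1 member higher (2.56%) and 0 lower, whereas over all genes 7.34% were higher and 7.48% lower by that much, 14.8% together. The members' median log2 fold change (DA group minus Pam3CSK4 group) was -0.03, beside 0.02 over all genes, and their median absolute log2 fold change was 0.37, beside 0.38. The members' median standard error was 0.070 and that of all genes 0.086. The split moved with the scaling. Upper-quartile factors put 17 members higher and 13 lower, and they shifted the median of all genes to 0.14. limma on the FPKM values put 17 higher and 14 lower.

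**Figure D1:**
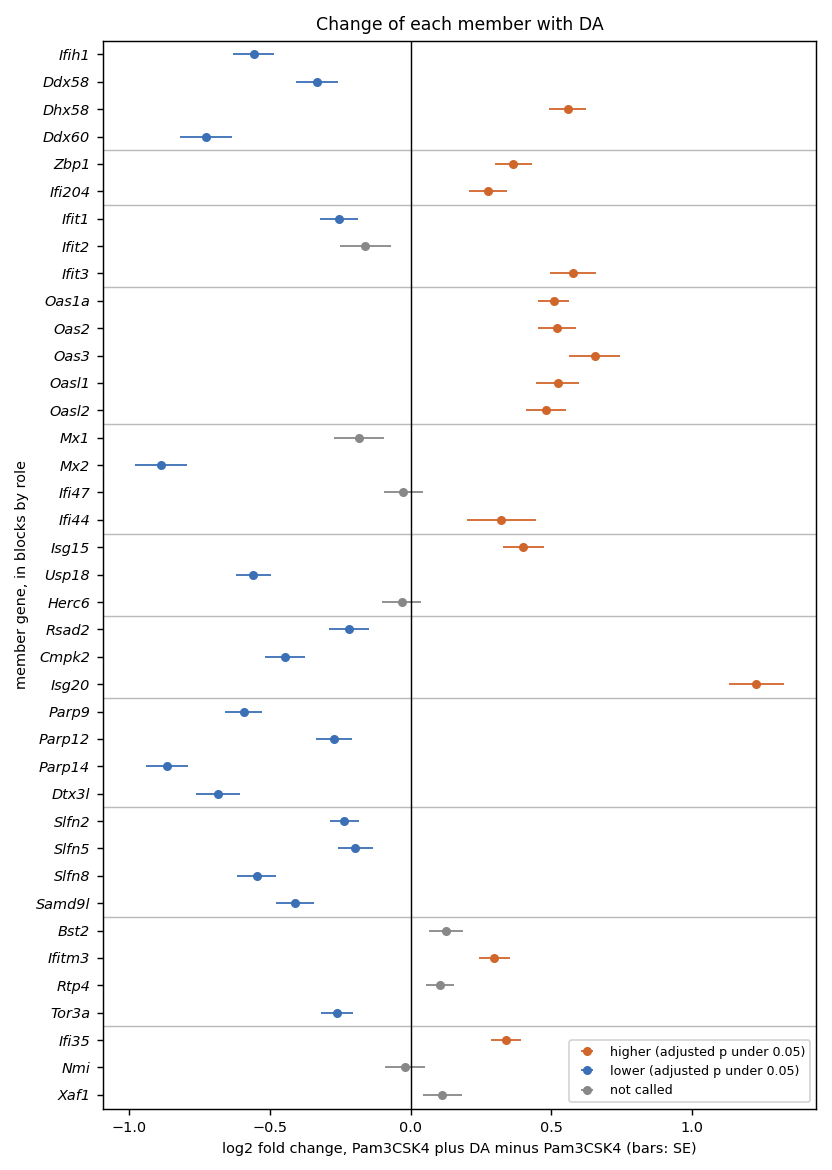
Log2 fold change (DA group minus Pam3CSK4 group, x axis) of each of the 39 members (y axis, in blocks by role), with bars for the standard error from edgeR's fit on 3 against 3 libraries. The 5 OAS genes lie right of 0 and the 4 ADP-ribosyltransferase group genes and 4 Schlafen and Samd9l genes left of it, and Isg20 is the only point beyond 1.

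Depth was nearly equal, at 21337932 to 21518425 expected counts per library, and a level in CPM below is an expected count relative to the library size, after scaling by TMM factors. Nothing in the labels ties replicates to separate mice or cultures, so the p-values rest on how far these 6 libraries differ, and that spread may be technical. The macrophage markers Adgre1, Csf1r, Cd68, Cd14, Itgam, Fcgr1, Mertk and Lyz2 were all listed in every library, with a summed level of 28044 to 28158 CPM with Pam3CSK4 and 21437 to 21814 CPM with DA, most of it Lyz2. Of these 8 markers 5 fell, among them Adgre1 (2.39-fold lower) and Lyz2 (1.37-fold lower), 1 rose (Fcgr1, 2.69-fold higher), and Cd68 and Cd14 were not called. In bulk samples fewer cells of a type and less RNA per cell cannot be told apart. Siglech, the defining marker of plasmacytoid dendritic cells, which are strong interferon producers, was at 0.39 to 0.481 CPM with Pam3CSK4 and 0.405 to 0.5 CPM with DA. Of the 6 genes in that marker list, 4 were tested and 2 fell (Tcf4 and Ccr9), Klk1 was listed in none of the libraries, and the summed level was 71.4 to 83.1 CPM against 41.6 to 46.7 CPM, most of it Tcf4. Of 7 neutrophil markers, 6 were tested, 1 rose (S100a8, log2 fold change 2.68) and 1 fell (Camp). The median log2 fold change of the 6 was -0.16. The summed level of the 7 was 154 to 199.7 CPM with Pam3CSK4 and 514 to 537 CPM with DA, and the defining marker Ly6g stayed under 0.5 CPM in all 6 libraries. Markers of conventional dendritic cells summed to 3.75 to 4.83 CPM with Pam3CSK4 and 3.95 to 4.91 CPM with DA. Only 2 of these 6 were tested, and both changed at least 2-fold, Xcr1 higher and Ccr7 lower, which the sum does not show. Markers of T and NK cells summed to 19.1 to 20.9 and 16 to 19.4 CPM. Of that list 3 were tested and 2 fell, Klrb1c at least 2-fold and Cd8a by less. Markers of B cells summed to 0.721 to 1.06 and 0.59 to 0.765 CPM. The part of these shifts in the members' results was not tested.

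The members' promoters are shown first because ISGF3 acts there. RefSeq windows on GRCm38.p6, from 250 bases before to 50 after the transcript start, were matched by gene ID for 28 of the 39 members. The ISRE core, GAAA followed after any 2 bases by a second GAAA and searched on both strands, was present in 13 of these 28 (46.4%) and in 3.99% of the 27025 genes with a window. It was held by 5 of 10 members that were higher with DA, 7 of 12 that were lower and 1 of 6 that were not called, so members moving in both directions carried it. The gamma-activated sequence (GAS, TTCNNNGAA, the same on both strands) was in 6 of 28 members (21.4%) and in 9.55% of all genes, namely in 4 of 10 higher, 0 of 12 lower and 2 of 6 not called. GAS and ISRE matches can overlap, as they do in Bst2 and Ifitm3. An NF-kB form, GGGA followed after any 1 base by TTTCC on either strand, was in 0 of the 28 windows and in 0.466% of all genes. So rare a pattern cannot set 28 windows apart from those of other genes. A match is a description of letters and not a bound site. The windows below are those of members the results turn on, written 5′ to 3′ along the gene, with every ISRE core in capitals, so that overlapping cores form 1 longer run. They are the 3 higher and 3 lower members with the smallest adjusted p among those with a window (Isg20, Oas1a, Oas3, Dtx3l, Slfn8 and Ddx60), and Ifit1, Ifit3 and Isg15 for their cores.
Ifit1 promoter, chr19:34640639-34640938, plus strand: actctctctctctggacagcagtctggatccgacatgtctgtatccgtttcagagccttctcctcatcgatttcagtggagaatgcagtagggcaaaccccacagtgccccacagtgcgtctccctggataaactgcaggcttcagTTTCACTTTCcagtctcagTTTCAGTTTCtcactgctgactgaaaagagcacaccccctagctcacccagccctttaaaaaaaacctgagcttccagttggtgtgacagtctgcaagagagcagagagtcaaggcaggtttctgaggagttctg
Ifit3 promoter, chr19:34583279-34583578, plus strand: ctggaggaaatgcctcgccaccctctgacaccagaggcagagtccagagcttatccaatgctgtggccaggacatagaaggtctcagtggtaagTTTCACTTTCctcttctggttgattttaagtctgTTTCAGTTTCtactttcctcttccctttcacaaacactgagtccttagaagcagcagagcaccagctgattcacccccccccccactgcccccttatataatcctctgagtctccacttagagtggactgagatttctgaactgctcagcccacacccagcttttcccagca
Isg15 promoter, chr4:156200769-156201068, minus strand: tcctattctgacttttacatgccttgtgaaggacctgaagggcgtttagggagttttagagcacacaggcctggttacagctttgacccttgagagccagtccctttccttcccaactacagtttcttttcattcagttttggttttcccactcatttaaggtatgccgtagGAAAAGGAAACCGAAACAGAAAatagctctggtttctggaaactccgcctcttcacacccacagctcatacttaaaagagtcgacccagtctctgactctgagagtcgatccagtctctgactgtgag
Oas1a promoter, chr5:120907476-120907775, minus strand: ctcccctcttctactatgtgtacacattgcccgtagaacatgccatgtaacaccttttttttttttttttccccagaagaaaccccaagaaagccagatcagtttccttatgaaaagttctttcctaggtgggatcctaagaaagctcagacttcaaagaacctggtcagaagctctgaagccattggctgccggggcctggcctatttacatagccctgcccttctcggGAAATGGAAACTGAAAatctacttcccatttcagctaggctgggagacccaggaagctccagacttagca
Oas3 promoter, chr5:120777610-120777909, minus strand: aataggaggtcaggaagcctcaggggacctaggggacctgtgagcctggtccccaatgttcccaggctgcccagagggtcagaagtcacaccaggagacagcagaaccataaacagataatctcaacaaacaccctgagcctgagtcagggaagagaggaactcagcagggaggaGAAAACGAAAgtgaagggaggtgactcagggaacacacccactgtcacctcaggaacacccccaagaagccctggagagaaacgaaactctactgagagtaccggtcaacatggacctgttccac
Isg20 promoter, chr7:78913174-78913473, plus strand: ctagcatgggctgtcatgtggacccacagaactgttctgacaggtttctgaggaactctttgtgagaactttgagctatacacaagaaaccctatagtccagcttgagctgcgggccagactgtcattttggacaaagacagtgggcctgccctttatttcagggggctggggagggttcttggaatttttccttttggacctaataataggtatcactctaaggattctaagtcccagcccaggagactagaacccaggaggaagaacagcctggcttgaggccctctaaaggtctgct
Ddx60 promoter, chr8:61927837-61928136, plus strand: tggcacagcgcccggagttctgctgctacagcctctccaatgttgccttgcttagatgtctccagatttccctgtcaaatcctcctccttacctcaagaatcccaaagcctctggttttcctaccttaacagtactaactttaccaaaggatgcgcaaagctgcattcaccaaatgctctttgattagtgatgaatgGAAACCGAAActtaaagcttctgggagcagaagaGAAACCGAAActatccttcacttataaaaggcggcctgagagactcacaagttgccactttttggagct
Slfn8 promoter, chr11:83020761-83021060, minus strand: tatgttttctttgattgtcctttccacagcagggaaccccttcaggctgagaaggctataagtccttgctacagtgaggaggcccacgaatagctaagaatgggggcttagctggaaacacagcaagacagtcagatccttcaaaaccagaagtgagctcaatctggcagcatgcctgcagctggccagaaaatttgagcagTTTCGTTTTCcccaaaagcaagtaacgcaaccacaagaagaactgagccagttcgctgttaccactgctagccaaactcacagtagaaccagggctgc
Dtx3l promoter, chr16:35938978-35939277, minus strand: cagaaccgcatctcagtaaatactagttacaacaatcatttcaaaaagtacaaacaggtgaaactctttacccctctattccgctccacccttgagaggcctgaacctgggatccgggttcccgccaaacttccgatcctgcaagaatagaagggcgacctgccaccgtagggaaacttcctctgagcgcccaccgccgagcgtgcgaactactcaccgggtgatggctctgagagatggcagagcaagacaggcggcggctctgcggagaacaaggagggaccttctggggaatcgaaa
Ifit1 and Ifit3, whose levels went in opposite directions, hold the same pair of cores, TTTCACTTTC and TTTCAGTTTC, which begin 104 and 85 bases before the start in Ifit1 and 156 and 122 bases before it in Ifit3. Isg15 holds 3 overlapping cores, the most of any member, beginning 78, 72 and 66 bases before the start. Oas1a, which rose, and Ddx60, which fell, each hold 2. The Isg20 and Dtx3l windows hold none. Isg20 has 3 annotated starts, and the window of the most upstream one, shown here, has a GAS match, TTCTTGGAA, beginning 73 bases before the start.

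Among the RNA sensors, which detect viral RNA in the cytosol, the receptor genes Ifih1 (MDA5) and Ddx58 (RIG-I) fell and Dhx58 (LGP2), a related helicase that modulates their signalling and lacks their caspase recruitment domains, rose. Ifih1 was at 186, 172 and 161 CPM with Pam3CSK4 and 127, 105 and 121 CPM with DA, a log2 fold change of -0.56 (SE 0.073). Ddx58 was at 203, 203 and 182 CPM and then 168, 137 and 162 CPM, a log2 fold change of -0.33 (SE 0.075). Every DA library lay below every Pam3CSK4 library for both receptor genes, and the gap was narrower for Ddx58, whose call was lost with limma on FPKM without a filter (-0.24, adjusted p = 0.0635). Dhx58 went the other way, from 89.5, 92.2 and 85.4 CPM to 139, 118 and 136 CPM (1.47-fold higher, adjusted p = 4.15e-06 by edgeR), with no overlap. Ddx60, a helicase gene proposed to assist RIG-I, fell from 37, 34.3 and 27.8 CPM to 20.6, 19.3 and 19.9 CPM, which is 1.66-fold lower. The groups did not overlap for any of the 4 sensors. Over the list this held for 32 members (82.1%), 15 higher and 17 lower, and over all genes for 68.7%, 34.7% higher and 34.0% lower. Dhx58 shares exonic bases with Dhx58os on the opposite strand, as Oasl1, Usp18, Slfn5, Ifi35 and Ifi47 do with other annotated genes. How the counting treated strand is not stated, so reads within these overlaps cannot be assigned to 1 strand.

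Both genes for sensors of DNA and of Z-form nucleic acid rose. Zbp1, whose product binds left-handed nucleic acids and can start necroptosis, was at 105, 121 and 109 CPM with Pam3CSK4 and 149, 134 and 148 CPM with DA (1.29-fold higher, adjusted p = 0.000221 by edgeR). The 3 DA libraries lay above the 3 others, by a margin smaller than the range within the Pam3CSK4 group. Ifi204, a DNA-binding p200 family gene, rose 1.21-fold, a log2 fold change of 0.28 (SE 0.067). The value of Ifi204 is uncertain, because 20% of the 50-base words in its GENCODE transcripts also occur in other genes, mostly its relative Ifi211.

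The 3 IFIT genes, of a family that binds viral RNA and blocks its translation, lie near each other on chromosome 19 and were divided. In GENCODE's annotation of GRCm38, Ifit2, Ifit3 and Ifit1 lie in this order on the plus strand between 34550694 and 34650009. The distance is 7.1 kb between Ifit2 and Ifit3 and 52.1 kb between Ifit3 and Ifit1, and genes outside the list were not looked for between them. Ifit3 rose from 101, 106 and 99 CPM to 166, 128 and 161 CPM, a log2 fold change of 0.58 (SE 0.082). Ifit1 was at 206, 202 and 192 CPM with Pam3CSK4 and 181, 149 and 173 CPM with DA, a log2 fold change of -0.25 (SE 0.068), and Ifit2 was not called (-0.16, adjusted p = 0.135 by edgeR). The groups stood apart for Ifit3 and Ifit1 and overlapped for Ifit2. The fall of Ifit1 was lost with upper-quartile factors (-0.14, adjusted p = 0.0592) and on FPKM with limma (-0.17, adjusted p = 0.0581). Ifit2 was called lower without Pam3CSK4 replicate 3 (-0.23) and without DA replicate 1 (-0.25). Ifit3 shares 51.2% of its 50-base words with its copy Ifit3b, so reads of the pair may be divided between them. Ifit3b itself was listed at 13.8, 14.1 and 13.8 CPM and then 17.1, 9.9 and 14.6 CPM, and was not called (log2 fold change 0.001).

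All 5 members of the OAS family rose, under each of the 16 alternative settings as well. Oas1a, Oas2 and Oas3 encode enzymes that sense double-stranded RNA and make 2′-5′ oligoadenylate, the activator of RNase L, and Oasl1 and Oasl2 encode OAS-like proteins with ubiquitin-like domains. Their log2 fold changes lay close together, from 0.48 (Oasl2) to 0.66 (Oas3), with a median of 0.52. Oas1a was at 209, 220.4 and 212 CPM with Pam3CSK4 and 310.1, 287 and 317 CPM with DA (1.42-fold higher, adjusted p = 1.49e-06 by edgeR). Oas2 was at 105, 113 and 98.8 CPM and then 165, 142 and 149 CPM (1.44-fold higher). Oas3 was at 172, 177 and 154 CPM and then 286, 218 and 287 CPM. In all 5 genes the 3 DA libraries lay above the 3 Pam3CSK4 libraries, and DA replicate 2 was the lowest of the DA libraries. The summed level of the 5 was 884 to 945 CPM with Pam3CSK4 and 1164 to 1390.1 CPM with DA. Oas2, Oas3 and Oas1a lie within 1 cluster on chromosome 5, where Oas2 ends 3.2 kb from Oas3, and Oasl2 and Oasl1 form a second pair 11 kb apart on the same chromosome. Oas1a shares 57.6% of its 50-base words with Oas1g, which is not a member and also rose, by a log2 fold change of 0.67 (SE 0.068), so the level of each is uncertain.

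Genes for interferon-inducible GTPases and related proteins were divided. Mx2, a dynamin-like GTPase gene that GENCODE annotates as a polymorphic pseudogene, fell most of all members by edgeR's log2 fold change, from 28.2, 29.1 and 29.5 CPM to 17.4, 13 and 16.5 CPM (-0.89, SE 0.092, adjusted p = 1.19e-06). Its neighbour Mx1, known to be non-functional in C57BL/6 mice, was not called (-0.18, adjusted p = 0.0805 by edgeR), although it was called lower without Pam3CSK4 replicate 3 (-0.22) and without DA replicate 1 (-0.26). Mx2 stood apart in every library and Mx1 overlapped. Ifi47, an immunity-related GTPase gene, was not called (-0.02), and it shares 111 exonic bases with Olfr56 on the same strand. Ifi44, an interferon-induced gene that limits virus growth in human cells, was at 15.1, 12.3 and 12.2 CPM with Pam3CSK4 and 19.9, 14.3 and 15.4 CPM with DA, and the 2 groups overlapped. Its call as higher (log2 fold change 0.32, SE 0.121, adjusted p = 0.0305 by edgeR) was lost without Pam3CSK4 replicate 2 (0.27), without Pam3CSK4 replicate 3 (0.27) and without DA replicate 1 (0.17), and also with no filter on low counts (0.29) and with limma on FPKM without one (0.34).

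In the ISG15 system the modifier rose while its protease fell. Isg15, a ubiquitin-like protein that is joined to viral and host proteins, was at 213, 259.9 and 237 CPM with Pam3CSK4 and 319.7, 286 and 332 CPM with DA (1.32-fold higher, adjusted p = 0.000276 by edgeR). Usp18, which removes Isg15 from its targets and also binds Ifnar2 to dampen interferon signalling, fell from 199, 211 and 196 CPM to 147, 126 and 138 CPM (1.47-fold lower, adjusted p = 2.39e-06). Neither gene's groups overlapped. Herc6, the ligase that conjugates Isg15 in the mouse, was not called (-0.03, adjusted p = 0.71), and its sign turned with upper-quartile factors and on FPKM.

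Of the nucleotide and RNA enzymes, Isg20 had the largest rise of all members and its 2 companions fell a little. Isg20, a 3′ exonuclease that degrades RNA, was at 12.7, 13.1 and 13.7 CPM with Pam3CSK4 and 31.5, 26.3 and 34.8 CPM with DA. Its lowest DA library was thus well above its highest Pam3CSK4 library, and the log2 fold change was 1.23 (SE 0.098) with an adjusted p of 6.74e-08 by edgeR. It lies on chromosome 7 from 78913424 to 78920396 and remained past 2-fold in each of the 16 alternatives. Rsad2 (viperin), which makes a chain-terminating nucleotide, and Cmpk2, a kinase that supplies its substrate, are neighbours on chromosome 12, read in opposite directions 12.8 kb apart. Cmpk2 fell from 149.5, 156 and 146 CPM to 116, 96.3 and 119 CPM, a log2 fold change of -0.45 (SE 0.072). Rsad2 went from 333, 326 and 317 CPM to 299, 243 and 297 CPM, a log2 fold change of -0.22 (SE 0.071). The groups did not overlap for either, but the call of Rsad2 was lost with upper-quartile factors (-0.10, adjusted p = 0.171) and on FPKM with limma (-0.13, adjusted p = 0.137).

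All 4 genes of the ADP-ribosyltransferase group fell, with log2 fold changes from -0.87 to -0.27. Parp14, a macrodomain protein that adds ADP-ribose to proteins, was at 643, 581 and 555 CPM with Pam3CSK4 and 356, 290.1 and 329.5 CPM with DA (1.82-fold lower, adjusted p = 1.45e-07 by edgeR). Its highest DA library was far below its lowest Pam3CSK4 library. Dtx3l, a ubiquitin ligase gene (-0.69), and Parp9, which encodes its binding partner (-0.59), fell to a like extent, and Parp12, an RNA-binding member, fell least (-0.27). Parp14, Dtx3l and Parp9 lie together on chromosome 16 between 35832874 and 35972605, and Dtx3l and Parp9, read in opposite directions, overlap by 458 exonic bases, so that without strand information reads there cannot be told apart. The sign of all 4 was the same in each of the 16 alternatives, and the call of Parp12 was lost in 1 of them, limma on FPKM without a filter (-0.18, adjusted p = 0.0792).

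The Schlafen genes and Samd9l fell as well. Slfn8 was at 141, 144 and 139 CPM with Pam3CSK4 and 107, 87.4 and 95.9 CPM with DA, a log2 fold change of -0.55 (SE 0.068). Samd9l (-0.41), Slfn2 (-0.23) and Slfn5 (-0.20) fell less. The groups did not overlap in any of the 4, but for Slfn5 the highest DA library lay just below the lowest Pam3CSK4 library. The call of Slfn5 was lost in all 3 limma fits on FPKM (-0.11 in each), and that of Slfn2 in the one without a filter (-0.15). With upper-quartile factors those of Slfn2 (-0.12) and Slfn5 (-0.08) were lost, and that of Slfn5 also without Pam3CSK4 replicate 2 (-0.18, adjusted p = 0.0515). Slfn5, Slfn8 and Slfn2 form a cluster on chromosome 11. Slfn8 shares 14.6% of its 50-base words with other genes, chiefly Slfn10-ps, which rose (log2 fold change 0.40), and Slfn9, which fell (-0.60).

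**Figure D2:**
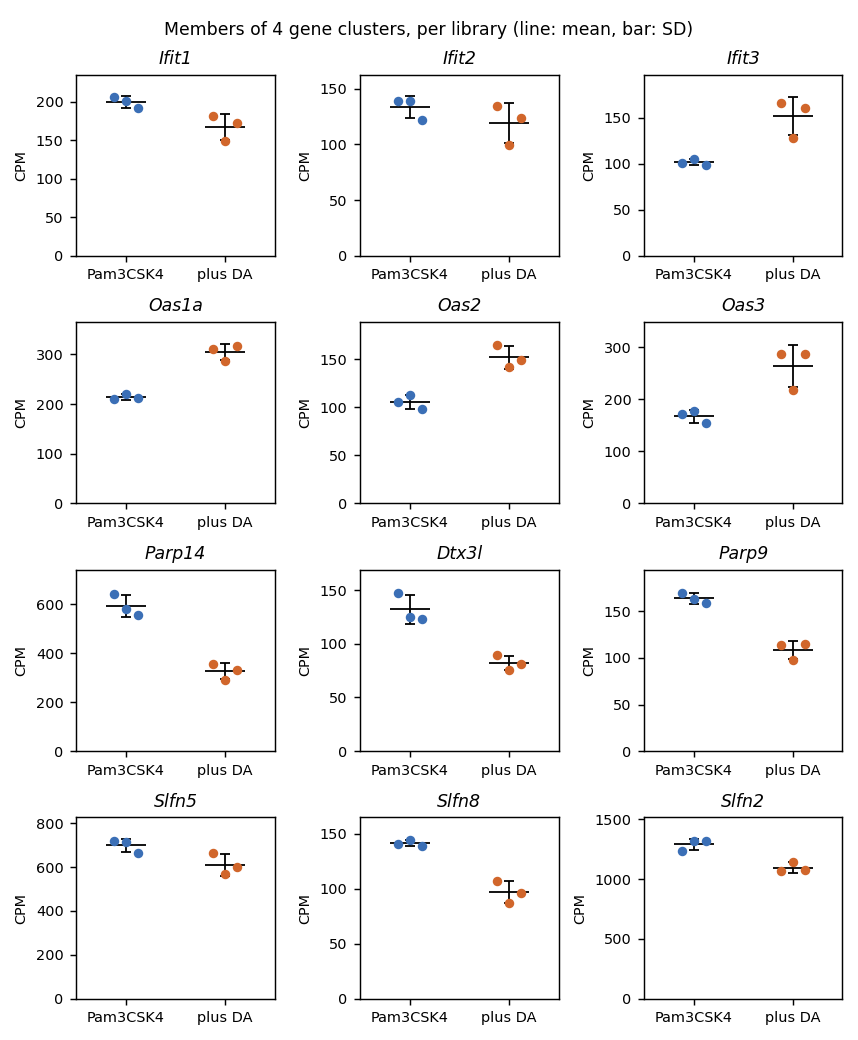
Level in CPM (y axis, from 0) of 12 members from 4 gene clusters in each of the 3 Pam3CSK4 and 3 DA libraries (x axis), with a line at the mean and bars for the SD. The rows show the IFIT, OAS, ADP-ribosyltransferase and Schlafen clusters: Ifit3 rises beside Ifit1, which falls, the 3 OAS genes rise, and the 6 genes of the lower rows fall.

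Genes for membrane proteins and endoplasmic reticulum chaperones changed little, with no log2 fold change beyond that of Ifitm3. Ifitm3, which blocks fusion of viruses with endosomes, was at 515, 561 and 572 CPM with Pam3CSK4 and 672, 698 and 657 CPM with DA (1.23-fold higher, adjusted p = 0.000236 by edgeR), with no overlap. Bst2 (tetherin), which holds budding viruses at the cell surface, was at 231, 248 and 254 CPM and then 257, 255 and 288 CPM. Its DA libraries lay above its Pam3CSK4 libraries only narrowly, and it was not called (0.13, adjusted p = 0.0859). Rtp4, which encodes a receptor transporter protein, gave a like result (0.10, adjusted p = 0.0867). Both were called higher with upper-quartile factors (Bst2 0.24, Rtp4 0.22) and on FPKM with limma, and also with edgeR on genes with a mean of at least 50 counts (Bst2 0.15, Rtp4 0.12). Tor3a, a torsin family ATPase gene of the endoplasmic reticulum, fell from 147, 153 and 152 CPM to 130.2, 117 and 129.8 CPM (-0.26). Among the last 3 members, Ifi35, whose product binds Nmi, rose from 94, 102 and 99.6 CPM to 123, 123 and 128 CPM (1.27-fold higher, adjusted p = 7.72e-05 by edgeR). Nmi itself (-0.02) and Xaf1, a pro-apoptotic gene (0.11), were not called, but Xaf1 was called higher with upper-quartile factors (0.23), with limma on FPKM for genes past the filter (0.20 with a pseudocount of 1) and without Pam3CSK4 replicate 2 (0.19). Ifitm3, Rtp4 and Herc6 share 10%, 11.6% and 12.5% of their 50-base words with other annotated genes.

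**Figure D3:**
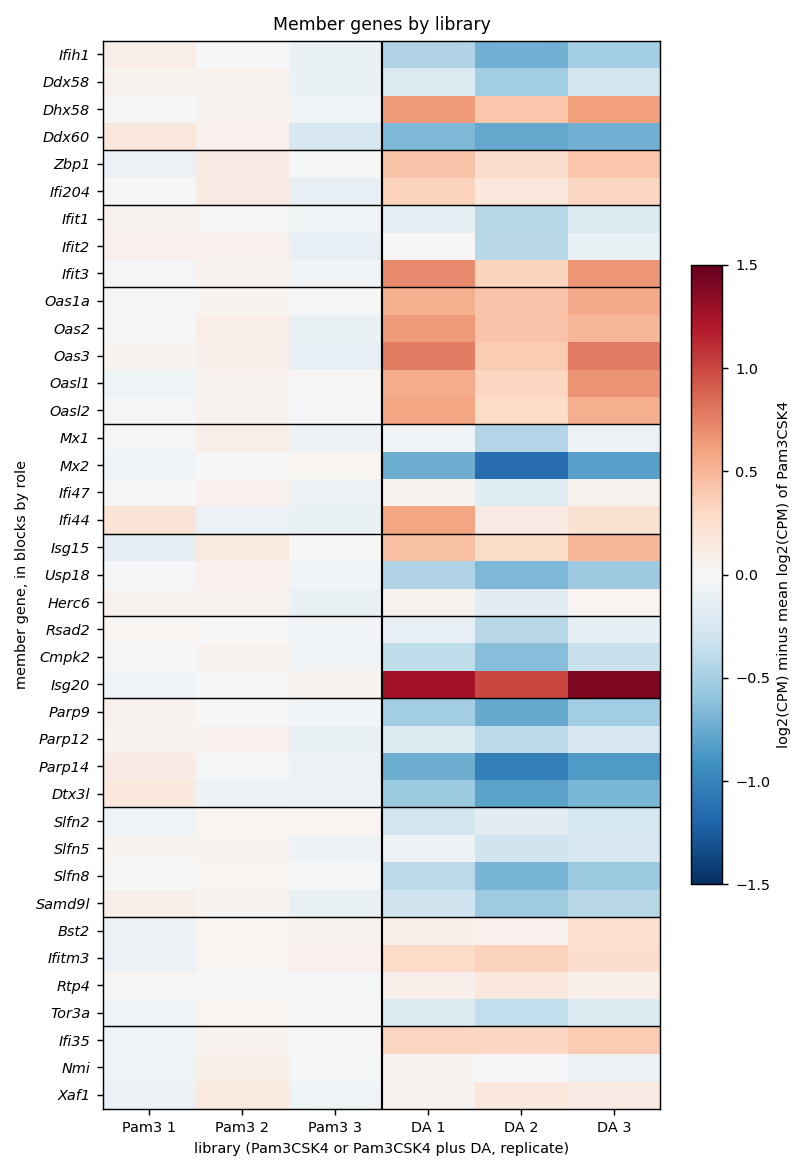
Each row is 1 of the 39 members, in blocks by role, and each column 1 of the 6 libraries; colour gives log2(CPM) minus the gene's mean log2(CPM) in the Pam3CSK4 libraries. Within a block of the DA columns, genes that rose (red) and genes that fell (blue) stand side by side, and DA replicate 2 is the bluest or palest DA column for most members.

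The members varied together between libraries of 1 group. DA replicate 2 was the lowest of the 3 DA libraries for 34 of 39 members and for 42.6% of all genes tested, and Pam3CSK4 replicate 2 was the lowest of its group for 0 members and for 26.4% of all genes. The median coefficient of variation over members was 4.88% with Pam3CSK4 and 8.39% with DA. Without DA replicate 2 the test called 14 members higher and 17 lower, the same counts as with all 6 libraries, and each of the 31 calls held. Without Pam3CSK4 replicate 3, the lowest of its group for 25 members (34.9% of all genes), the test called 13 higher and 19 lower. The counts were the same without DA replicate 1, the highest of its group for 26 members (36.5% of all genes). Without Pam3CSK4 replicate 2 they were 14 and 16.

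On the deposited FPKM scale, which divides by transcript length and so allows genes to be set against each other, the levels ran from 4.36 ± 0.552 (Ifi44) to 853 ± 41.2 FPKM (Ifitm3) with Pam3CSK4 (SD, n = 3). Ifitm3, Slfn2, Isg15 and Bst2 were the 4 highest in both groups, in this order. With Pam3CSK4 the ranges of Isg15 (312 ± 30.9 FPKM) and Bst2 (280.1 ± 11.6 FPKM) overlapped, as the lowest Isg15 library lay within the range of Bst2. Within each Pam3CSK4 library, however, Isg15 was the higher of the pair. With DA Isg15 was at 439 ± 29.8 FPKM and Bst2 at 325 ± 20.3 FPKM (SD, n = 3). Isg20 moved from rank 36 to rank 26 of 39 and Oas3 from 28 to 18, while Parp14 moved from 13 to 21 and Parp9 from 22 to 29. The sum over the 39 was 3960 to 4199 FPKM with Pam3CSK4 and 4483 to 4686 FPKM with DA, and in CPM the sums overlapped (8117 to 8546 and 7560 to 8384 CPM). The scales differ in length weighting and in TMM scaling. As a share of raw counts the members made up 0.806 ± 0.0261% with Pam3CSK4 and 0.831 ± 0.0401% with DA (SD, n = 3), and the FPKM total of all genes was also higher with DA in every library.

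**Figure D4:**
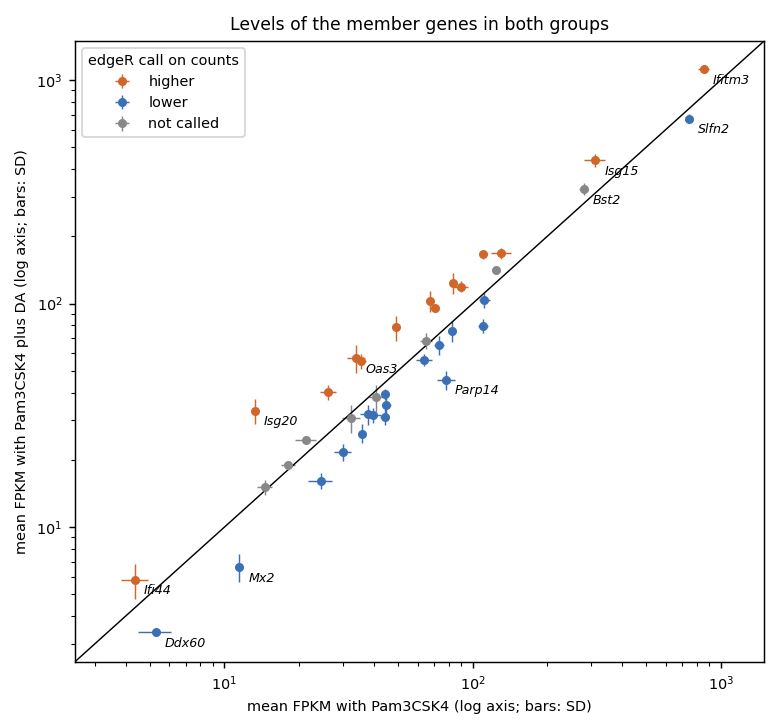
Mean FPKM with DA (y axis) against mean FPKM with Pam3CSK4 (x axis) for the 39 members, on log axes, with bars for the SD over 3 libraries and the line of equal level. Isg20 stands farthest above the line, Mx2 and Parp14 are among the points farthest below it, and Ifitm3, Slfn2, Isg15 and Bst2 keep the top 4 places.

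By their medians, members that fell had longer genes and transcripts than members that rose. The median genomic span in GENCODE's annotation was 25 kb over the 17 lower members and 11.8 kb over the 14 higher ones, and the median transcript length in the files was 3781 and 2061 bases. Across the 39 members the Spearman correlation of log2 fold change with span was -0.517 and with transcript length -0.519. Over the 11976 tested genes that GENCODE places, all measured in the same 6 libraries, these were -0.377 and -0.275. Genes are not independent replicates, so these values are descriptions, and the part of length in the members' results was not tested. Oas3, with a transcript of 4718 bases, rose, and Usp18, with one of 1778 bases, fell, so single members also went against the trend.

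**Figure D5:**
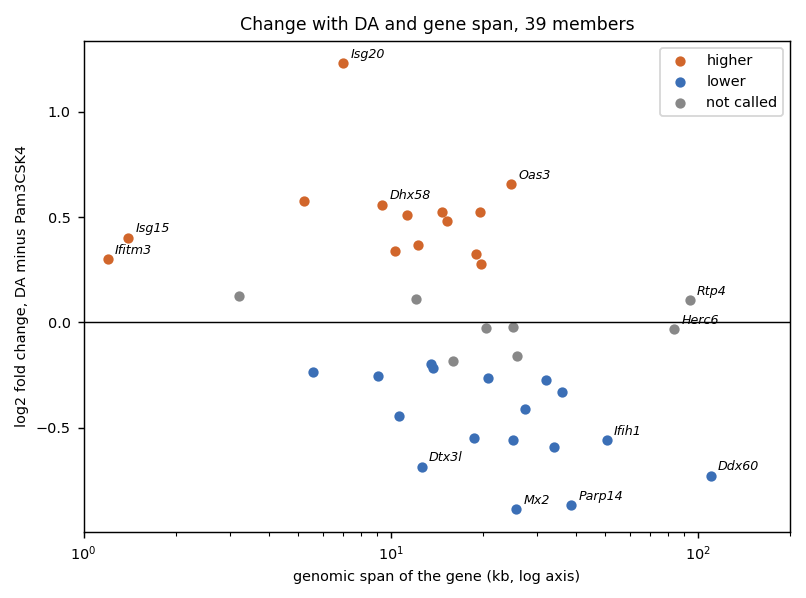
Log2 fold change (y axis, DA group minus Pam3CSK4 group) against genomic span in kb (x axis, log scale) for the 39 members, coloured by the edgeR call. The higher members lie between 1.2 and 24.6 kb, while members such as Ifih1 (50.5 kb) and Ddx60 (110.2 kb) fell. Rtp4 (93.9 kb) and Herc6 (83.6 kb) were not called, and short members such as Slfn2 (5.6 kb) and Ifit1 (9.1 kb) also fell.

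A separate list of 54 genes took in interferon ligands and receptors, the JAK-STAT relay, interferon regulatory factors, and sensing adaptors and kinases. It also held negative regulators and interferon-inducible GTPases. Of the 54, 44 were tested, 12 were higher (27.3%) and 25 lower (56.8%), beside 32.6% and 31.8% of all genes tested. Among the 25 lower were 6 of the GTPase genes and 4 negative regulators, and among the 12 higher were 2 GTPase genes. Ifnb1, the interferon beta gene, had only 7, 7 and 10 counts with Pam3CSK4 and 1, 1 and 0 with DA, too few to enter the test. Ifna1, Ifna2, Ifna4, Ifna5 and Ifne were listed in none of the 6 libraries. The receptor genes fell, Ifnar1 from 583, 595 and 560.5 CPM to 402, 393 and 381 CPM (-0.56) and Ifnar2 by 1.39-fold. Of the kinases behind them, Jak1 (-0.66) and Tyk2 (-0.23) fell, but the call of Tyk2 was lost with upper-quartile factors (-0.11) and in the 3 limma fits on FPKM (-0.14 to -0.13). Stat2 (0.38) and Irf9 (0.24), which act in ISGF3, rose. Irf7, the factor that amplifies interferon production, rose from 249.6, 278 and 267 CPM to 453, 386 and 479 CPM, Irf3 rose (0.19) and Irf1 fell (-0.77). The call of Irf3 was lost with DESeq2's Wald test (0.18), without Pam3CSK4 replicate 1 (0.15) and without DA replicate 3 (0.18).

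Past 2-fold in that list were 4 of the 44 genes (9.09%), a smaller share than the 14.8% over all genes, and all 4 were lower. They were Socs1, a feedback inhibitor of the JAK kinases (-2.17, SE 0.090), Jak2 (-1.68), the Toll-like receptor adaptor gene Ticam2 (-1.45) and Gbp5, a guanylate-binding protein gene (-1.70). Against the 32.6% higher and 31.8% lower over all genes, the interferon-inducible GTPase list of 13 genes had 10 tested, 2 higher (20%) and 6 lower (60%) with a median log2 fold change of -0.20, the 14 sensing adaptors and kinases had 4 higher (28.6%) and 6 lower (42.9%, median -0.07), and all 4 negative regulators fell (median -0.81). The 6 interferon regulatory factors leaned the other way, with 4 higher (66.7%) and 2 lower (33.3%, median 0.19). All 4 tested genes of the ligand and receptor list fell (median -0.52). Whether the members differ from these lists was not tested.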

How the data were processed

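RNA was sequenced on a BGISEQ-500, per the labels. The authors deposited, per the file headers, expected counts (estimated reads per gene, not normalized) and FPKM values, which they scaled by transcript length and library size. Per the submitters' processing notes the tools included Bowtie2 2.2.5 and the build was GRCm38.p5; which program estimated the counts is not given in the sources used here. Transcript lengths per gene were deposited too. Genes that a library's file does not list count as 0 there. Groups follow the sample titles, since the source field of each DA library gives the ligand another final digit.

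Expected counts were rounded, filterByExpr removed 5561 of 17951 genes, and 12390 were scaled by TMM and tested with edgeR 4.0.16 (quasi-likelihood test, Benjamini-Hochberg adjustment over all of them, threshold 0.05, no replicate block); the standard error is the size of the log2 fold change divided by the square root of F. The 16 alternatives were DESeq2's size factors, upper-quartile factors, scaling without the 50 most abundant genes, the Wald test of DESeq2 1.42.0, no filter on low counts, a mean of at least 50 counts, limma 3.58.1 on log2(FPKM + 1) and log2(FPKM + 0.1) for genes that reach 1 FPKM in 3 or more libraries, limma on log2(FPKM + 1) without that filter, a replicate block, and leaving out each library in turn. Replicates of a group differed by more than counting noise. An exact permutation of 3 against 3 cannot go below p = 0.1, so none was run. The members, roles and lists were chosen with earlier results of these data known. All 39 members may be named. Values per library are given for the called member with the smallest adjusted p in each direction of a role and for a fixed set, and a pathway gene is named if it changed at least 2-fold or belongs to the core signal relay, of which 1 gene is not reported here. Oas3 and the relatives Ifit3b, Oas1g, Slfn9 and Slfn10-ps were added after their values were seen. Promoter windows were read for 28 members. The rule for printing them took the 3 higher and 3 lower members with the smallest adjusted p and those with an ISRE core and values per library; of the latter, Bst2, Ddx58, Ifih1, Ifitm3 and Rsad2 were left out for length. GENCODE M21 coordinates were used, and 50-base words were compared between its transcripts.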

Additional observations from a re-analysis of the deposited data

How the results depend on the processing

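Of the 31 calls among members, 24 held in all 16 alternatives, 13 of them higher and 11 lower; the other 7 were Ifit1, Rsad2, Slfn2, Slfn5, Ddx58, Parp12 and Ifi44. limma on log2(FPKM + 1) without a filter called 11 members lower, where the main count was 17. Over all genes, falls of at least 2-fold numbered 927 by edgeR and 461 with limma on log2(FPKM + 1), 601 with log2(FPKM + 0.1) and 457 without a filter; rises numbered 910, and 478 with log2(FPKM + 1) and 471 without a filter. The log2(value + 1) scale understates the change of low genes. The limma fits also differ from edgeR's in filter, scaling and test, and the part of each in these counts was not tested. Members near 0 changed sign. The log2 fold changes of Ifi47, Herc6 and Nmi became 0.089, 0.082 and 0.095 with upper-quartile factors, 0.064, 0.052 and 0.073 with limma on log2(FPKM + 1), with or without a filter, and 0.065, 0.055 and 0.076 on log2(FPKM + 0.1). Nmi was at 0.00023 with a mean of at least 50 counts. Leaving out 1 library each gave -0.064 to 0.041 for Ifi47, -0.087 to 0.029 for Herc6 and -0.055 to 0.025 for Nmi. The cause of these changes was not tested.

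Whether the replicate numbers pair the samples cannot be told from the correlations of deviations from the group means. Libraries with the same number correlated at 0.191, 0.018 and 0.059. Those with different numbers correlated at -0.19 to 0.126, and the highest of these was Pam3CSK4 replicate 3 with DA replicate 2. With the replicate number as a block 15 members were higher and 18 lower, Mx1 and Bst2 being added. Depth limits Ifnb1, with at most 10 counts per library.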
